A study of Mus musculus with 4 samples.

Results

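The genes described here are the 7 that encode the histone methyltransferase complex around DOT1L and its recruiters, namely Dot1l, Mllt1, Mllt3, Mllt6, Mllt10, Kmt2a and Men1. They were chosen by name, with earlier results of these data known, from 21887 protein-coding genes of the mouse, and all 7 of 7 were found in the gene table. What was measured at them is the mark that the complex itself deposits, dimethylation of histone H3 at lysine 79 (H3K79me2), by chromatin immunoprecipitation and sequencing (ChIP-seq). Cells of the control group and of the inhibitor group were double-negative thymocytes at the DN3 stage, a stage of early T cell development, grown from haematopoietic stem cells of C57BL/6 mice. Both groups grew on OP9-DL1, a stromal line that presents a Notch ligand. Their medium held IL-7 at 2 ng/mL and Flt-3L at 5 ng/mL. The control group received DMSO, and the inhibitor group received A939572, which blocks the stearoyl-CoA desaturase SCD1. Each group has 1 ChIP library, so no value has a replicate error, no test was run and no difference between the groups has a replicate check. In a bulk culture, more cells with the mark and more mark per cell cannot be told apart.

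DOT1L methylates H3K79 and differs from most histone lysine methyltransferases in having no SET domain. AF10, encoded by Mllt10, binds DOT1L and helps it to reach the higher methylation states, and AF17, encoded by Mllt6, is its relative. AF9 (Mllt3) and ENL (Mllt1) carry a YEATS domain that reads acylated histone lysines, and they bind either DOT1L or the super elongation complex. MLL1, encoded by Kmt2a, methylates histone H3 at lysine 4, and menin (Men1) is a partner that holds it on chromatin. In leukaemia, translocations fuse MLL1 to AF9, ENL or AF10, and DOT1L is then drawn to MLL1 target genes. H3K79me2 lies over the 5′ part of transcribed genes, and here it is read on the genes that encode its own writer.

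The values are deposited broad peaks, regions that the authors' caller found enriched. Each has a fold enrichment over local background and a −log10 q, both means over the peak. A gene was called marked where peaks of a library covered at least 50% of its body, from the first to the last annotated base. The libraries differ as wholes, with 124962 control peaks and 35018 inhibitor peaks that cover 234.8 and 233.6 Mb. At q of at most 0.05 there were 804 control peaks, 0.643% of that list, and 6528 inhibitor peaks, 18.6%. The number of reads is unknown, and the part of this library-wide gap in the differences below was not tested. Of 14 T-lineage markers, 10 were marked in the control and 13 in the inhibitor library, with covered percents of 0 to 94.0 and 47.1 to 100. Markers of OP9 stroma gave 0 and 1 of 10 marked (Thbs1), with Col1a1, Col3a1, Pdgfra, Sparc and Cxcl12 at 0% in both. Thbs1, at 11.8% and 59.0%, and Pdgfrb, at 9.18% and 45.3%, were the 2 stromal genes at least 25 points higher in the inhibitor library, and the part of stromal cells in the results was not tested. B cell markers gave 0 and 0 of 6 and myeloid markers 0 and 1 of 6 (Cd68), and genes silent in blood gave 0 and 0 of 8. Below that threshold, control peaks covered up to 15.3% of a stromal gene (Dcn), 10.7% of a B cell gene, 23.8% of a myeloid gene (Elane) and 10.9% of a silent gene. Dcn, Elane and all silent genes were at 0% in the inhibitor library. The myeloid median difference was −8.03 points, with Cd68 and Csf1r higher in the inhibitor library.

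The start regions of these genes are shown first because the inhibitor peaks include all of them. RefSeq (GRCm38.p6) gives 12 start windows for the 7 genes, each of 250 bases before and 50 after a start. Those of Men1 overlap over most of their length, so the 12 windows are not separate units. All 12 windows were covered over 100% by inhibitor peaks, whereas 11 of 12 held no control peak. Over 21263 start windows of coding genes, inhibitor peaks touched 33.1% and control peaks 9.01% by at least 1 base. The lack of control peaks thus stands near the background. The share of all windows covered over 100% was not computed. The remaining window, an internal start of Mllt3, lay wholly inside a control peak. Printed below, 5′ to 3′ on the strand of the gene, are the windows of Dot1l, of Kmt2a, whose control domain stops just short of it, of Mllt6, the least covered gene, and both windows of Mllt3, for contrast. Capitals mark GGGCGG (the GC box bound by SP factors), CCGGAAG (an ETS core) and TATAAA, on either strand. Neighbouring GGGCGG copies may overlap.
Dot1l, chr10:80754953-80755252, plus strand: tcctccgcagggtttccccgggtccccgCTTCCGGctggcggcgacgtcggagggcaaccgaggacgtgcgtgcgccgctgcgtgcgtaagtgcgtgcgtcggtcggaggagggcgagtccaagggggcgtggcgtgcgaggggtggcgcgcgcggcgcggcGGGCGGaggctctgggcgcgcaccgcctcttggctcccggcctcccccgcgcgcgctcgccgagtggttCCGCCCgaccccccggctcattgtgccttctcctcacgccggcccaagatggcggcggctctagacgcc
Kmt2a, chr9:44881240-44881539, minus strand: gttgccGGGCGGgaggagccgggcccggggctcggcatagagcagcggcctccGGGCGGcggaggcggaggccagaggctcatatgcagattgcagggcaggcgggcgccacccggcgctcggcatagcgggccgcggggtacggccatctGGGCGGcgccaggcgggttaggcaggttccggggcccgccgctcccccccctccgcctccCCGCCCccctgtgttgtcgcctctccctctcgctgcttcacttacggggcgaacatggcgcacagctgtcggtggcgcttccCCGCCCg
Mllt6, chr11:97663162-97663461, plus strand: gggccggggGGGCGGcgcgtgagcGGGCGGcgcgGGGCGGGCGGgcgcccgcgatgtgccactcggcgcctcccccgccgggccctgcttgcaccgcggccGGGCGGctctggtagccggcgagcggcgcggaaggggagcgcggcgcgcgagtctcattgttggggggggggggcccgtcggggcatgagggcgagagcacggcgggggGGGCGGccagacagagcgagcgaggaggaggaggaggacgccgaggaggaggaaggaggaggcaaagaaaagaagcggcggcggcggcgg
Mllt3 at the gene start, chr4:88033358-88033657, minus strand: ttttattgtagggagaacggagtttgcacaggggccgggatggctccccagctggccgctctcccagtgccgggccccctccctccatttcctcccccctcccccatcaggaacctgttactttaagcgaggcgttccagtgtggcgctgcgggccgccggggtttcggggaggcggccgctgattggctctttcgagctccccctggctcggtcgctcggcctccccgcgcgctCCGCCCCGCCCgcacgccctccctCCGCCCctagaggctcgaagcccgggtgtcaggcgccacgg
Mllt3 internal, chr4:87806274-87806573, minus strand: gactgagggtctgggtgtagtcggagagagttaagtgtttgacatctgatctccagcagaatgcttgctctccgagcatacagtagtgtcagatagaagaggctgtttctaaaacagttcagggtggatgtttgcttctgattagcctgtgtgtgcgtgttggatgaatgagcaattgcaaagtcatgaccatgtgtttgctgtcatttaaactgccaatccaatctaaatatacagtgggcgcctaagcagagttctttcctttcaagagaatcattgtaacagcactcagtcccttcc
The windows of Dot1l, Kmt2a and Mllt6 are 76.3%, 75.7% and 79.3% G or C and hold 49, 36 and 46 CG dinucleotides. The Mllt3 window at the gene start holds 29, and the internal one holds 4. Over the 12 windows the median was 22.5 CG dinucleotides, against 13 over 21263 windows of coding genes. GGGCGG occurred in 9 of 12 windows and in at least 1 window of each of the 7 genes, and in 46.2% of all windows. The overlapping windows of Men1 hold the same match, which was counted in each of them. CCGGAAG occurred at Dot1l and Mllt1, and in 11.6% of all windows. TATAAA occurred in 0 of 12 and in 12.6% of all. These matches describe letters in the windows, not bound sites.

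H3K79me2 peaks covered more of all 7 genes in the inhibitor library than in the control library. In the control library 1 of 7 was marked, Mllt3, against 5.47% of coding genes. In the inhibitor library 6 of 7 were marked, all but Mllt6, against 26.1%. The inhibitor library covered at least 25 percentage points more for 6 of 7 genes, against 30.1% of coding genes, and the control library for 0 of 7, against 3.07%. The median covered percent of the 7 genes was 15.8 in the control and 76.6 in the inhibitor library, and over all coding genes it was 2.24 and 0.446. The median difference was 59.1 points, against 0 over all coding genes. A control peak of any strength touched 5 of 7 genes, against 55.3% of coding genes, so that count stands not far from the background. An inhibitor peak touched 7 of 7, against 51.4%.

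With strong peaks alone the direction was the same at 6 genes, and Mllt6 was at 0% in both libraries. Strong peaks cover 11.1 Mb in the control and 153 Mb in the inhibitor list. Only Kmt2a held a strong control peak, so at the other genes the direction could not have been reversed. When weaker peaks than q of 0.05 were left out, Kmt2a alone, 1 of 7 genes, held a control peak, against 3.92% of coding genes, and 6 of 7 held an inhibitor peak, against 34.7%. At that q the control library marked 0 of 7 (background 1.33%), and 5 of 7 were marked in the inhibitor library (19.6%). The inhibitor library then covered at least 25 points more for 6 of 7 (26.3%), and the control library for 0 of 7 (0.00%). Marked with all peaks but not with these were Mllt1 in the inhibitor library and Mllt3 in the control library.

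**Figure D1:**
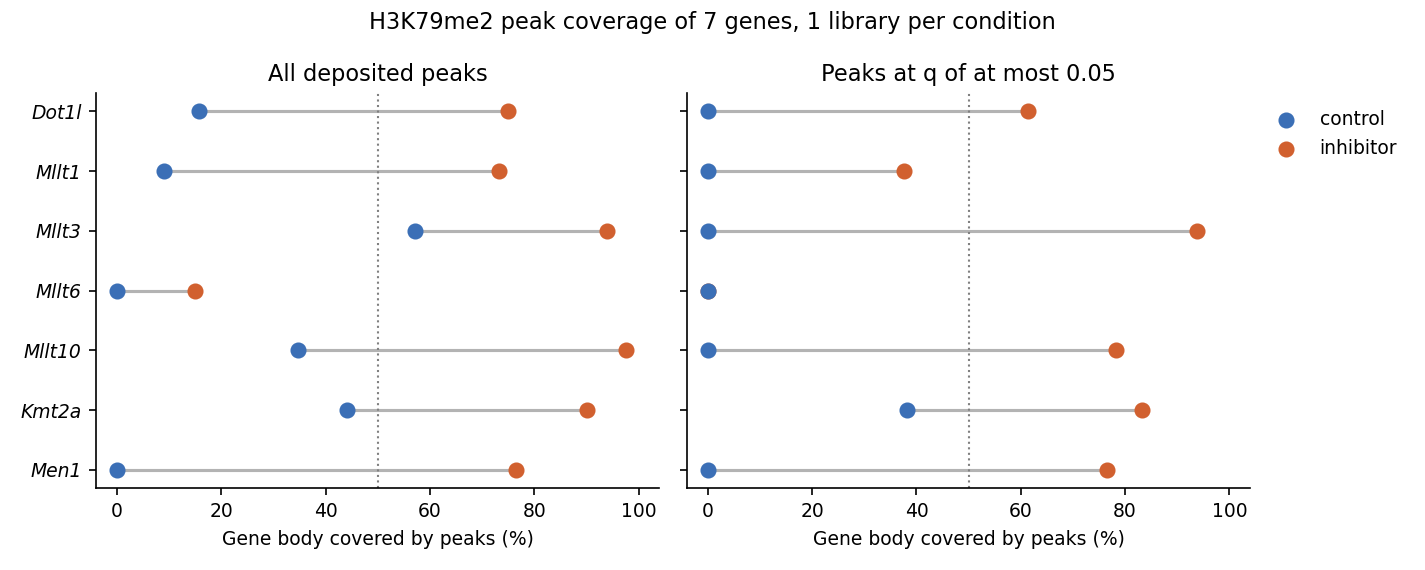
Covered percent of the gene body (x axis) for each of the 7 genes (y axis) in the control (blue) and inhibitor (orange) library, for all peaks on the left and for peaks at q of at most 0.05 on the right; each point is 1 library, and the dotted line is the 50% threshold. The inhibitor point lies to the right of the control point for all 7 genes on the left, from 14.9 points apart at Mllt6 to 76.6 at Men1, and on the right both points of Mllt6 are at 0.

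Dot1l, the methyltransferase itself, spans 40.4 kb on the plus strand of chromosome 10 (80755101 to 80795461, mm10). It was covered over 15.8% in the control library and 74.9% in the inhibitor library. Its 2 control peaks were 5.49 kb and 0.874 kb wide, with folds of 1.59 and 1.43 and −log10 q of 0.0073 and 0, so neither approached q of 0.05. Both lay in the first 9.83 kb of the gene. The main inhibitor peak ran from 1.35 kb before the start to 24.3 kb into the gene, with a fold of 3.38 and a −log10 q of 7.04. It contained both control peaks. A second strong inhibitor peak of 7.90 kb (80794952 to 80802847), with the highest −log10 q of any peak at the 7 genes, 12.95, touched only the last 510 bases of Dot1l. It lay mainly over the neighbours Plekhj1 and Sf3a2, a splicing factor gene. The 3 other inhibitor peaks, of 0.694 to 2.92 kb, had −log10 q of 0.122 or less. With strong peaks alone Dot1l was covered over 0% and 61.4%.

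Mllt10 and Mllt6 encode the related DOT1L partners AF10 and AF17, and they differed widely in coverage. Mllt10 spans 157 kb on chromosome 2 (18055160 to 18212390) and was covered over 34.8% in the control and 97.6% in the inhibitor library. Its 24 control peaks were scattered along the gene, with a median width of 2.01 kb, and none passed q of 0.05, the highest −log10 q being 0.306. The inhibitor list has 2 peaks there. The first was 123 kb wide, from 0.274 kb before the start to 123 kb into the gene, with a fold of 3.11 and a −log10 q of 4.48. Only 98 of 35018 inhibitor peaks were wider. The second, of 30.5 kb with a −log10 q of 0.837, reached into the end of Dnajc1, a coding gene that overlaps Mllt10, so its part cannot be given to 1 gene. RefSeq lists 3 starts for Mllt10, and the one rich in CG dinucleotides (43 in its window) lies inside the gene body at 18064585. The nearest control peaks lay 1.10 kb before and 3.70 kb after that start.

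Mllt6 spans 22.3 kb on chromosome 11 (97663122 to 97685461) and held no control peak. The inhibitor list gave it 1 peak of 3.86 kb, from 0.526 kb before to 3.33 kb after the start, with a fold of 1.82 and a −log10 q of 0.695. That peak covered 14.9% of the body and did not pass q of 0.05. Mllt6 was therefore the only one of the 7 genes with no strong peak in either library. The nearest control peak lay 65.7 kb before the start in its window.

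Mllt3 and Mllt1 encode the YEATS readers AF9 and ENL. Mllt3 is the longest of the 7 genes, 263 kb on the minus strand of chromosome 4 (87769925 to 88033407), and no other coding gene overlaps it. It was covered over 57.2% in the control and 94.0% in the inhibitor library. The control coverage came from 40 separate peaks with a median width of 2.23 kb, of which 0 passed q of 0.05. The widest was 21.3 kb, and only 343 of 124962 control peaks were wider. The highest −log10 q among the 40, 0.767, belonged to the 6.20 kb peak over the internal start whose window is printed above. In the inhibitor library a peak of 205 kb began 0.358 kb before the gene start, with a fold of 3.67 and a −log10 q of 6.61, and only 20 inhibitor peaks were wider. A further inhibitor peak of 42.4 kb, with a −log10 q of 1.66, included the internal start. With strong peaks alone the covered percent was 0 and 93.8, the widest gap of the 7 genes on that measure.

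Mllt1 spans 42.9 kb on the minus strand of chromosome 17 (56892608 to 56935509) and was covered over 9.05% and 73.2%. Its 3 control peaks were 0.945 to 1.68 kb wide, and the highest −log10 q was 0.0449. One of them began 0.659 kb after the start. An inhibitor peak of 17.3 kb over the start had a fold of 3.07 and a −log10 q of 3.45. It was followed by one of 13.4 kb with a −log10 q of 1.24, just under the limit of 1.30 that q of 0.05 sets. Mllt1 was therefore covered over 37.7% by strong inhibitor peaks and 0% by strong control peaks.

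Kmt2a and Men1 encode MLL1 and menin, which recruit the complex in leukaemia through MLL1 fusions. Kmt2a spans 78.0 kb on the minus strand of chromosome 9 (44803355 to 44881352) and was covered over 44.1% and 90.2%. It was the only one of the 7 genes with a strong control peak, and that peak passed narrowly, with a −log10 q of 1.33. The peak was 29.8 kb wide, began 0.333 kb after the start and had a fold of 2.20. By −log10 q it stood at place 785 of 124962 control peaks, and by width at place 150. The inhibitor peak ran from 2.22 kb before the start to 65.0 kb into the gene, with a fold of 4.45, the highest at the 7 genes, and a −log10 q of 12.7. It stood at place 385 of 35018 inhibitor peaks by −log10 q and contained the whole control domain. With strong peaks alone Kmt2a was covered over 38.1% and 83.3%. When each list was cut to its strongest peaks of equal covered length, a choice made after seeing the data, the control peak stayed and the inhibitor peak did not. The difference at Kmt2a then turned to −38.1 points, and the number of genes at least 25 points higher in the inhibitor library went from 6 to 0.

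Men1 is the shortest of the 7, 5.92 kb on the plus strand of chromosome 19 (6334979 to 6340894). No control peak touched it, and the nearest one downstream lay 29.5 kb from its starts. A single inhibitor peak, 5.36 kb wide, ran from 0.833 kb before the start to 4.53 kb into the gene and covered 76.6%. Its fold was 3.30 and its −log10 q 7.74, so the value was the same with strong peaks alone. This difference of 76.6 points was the widest of the 7 genes over all peaks.

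**Figure D2:**
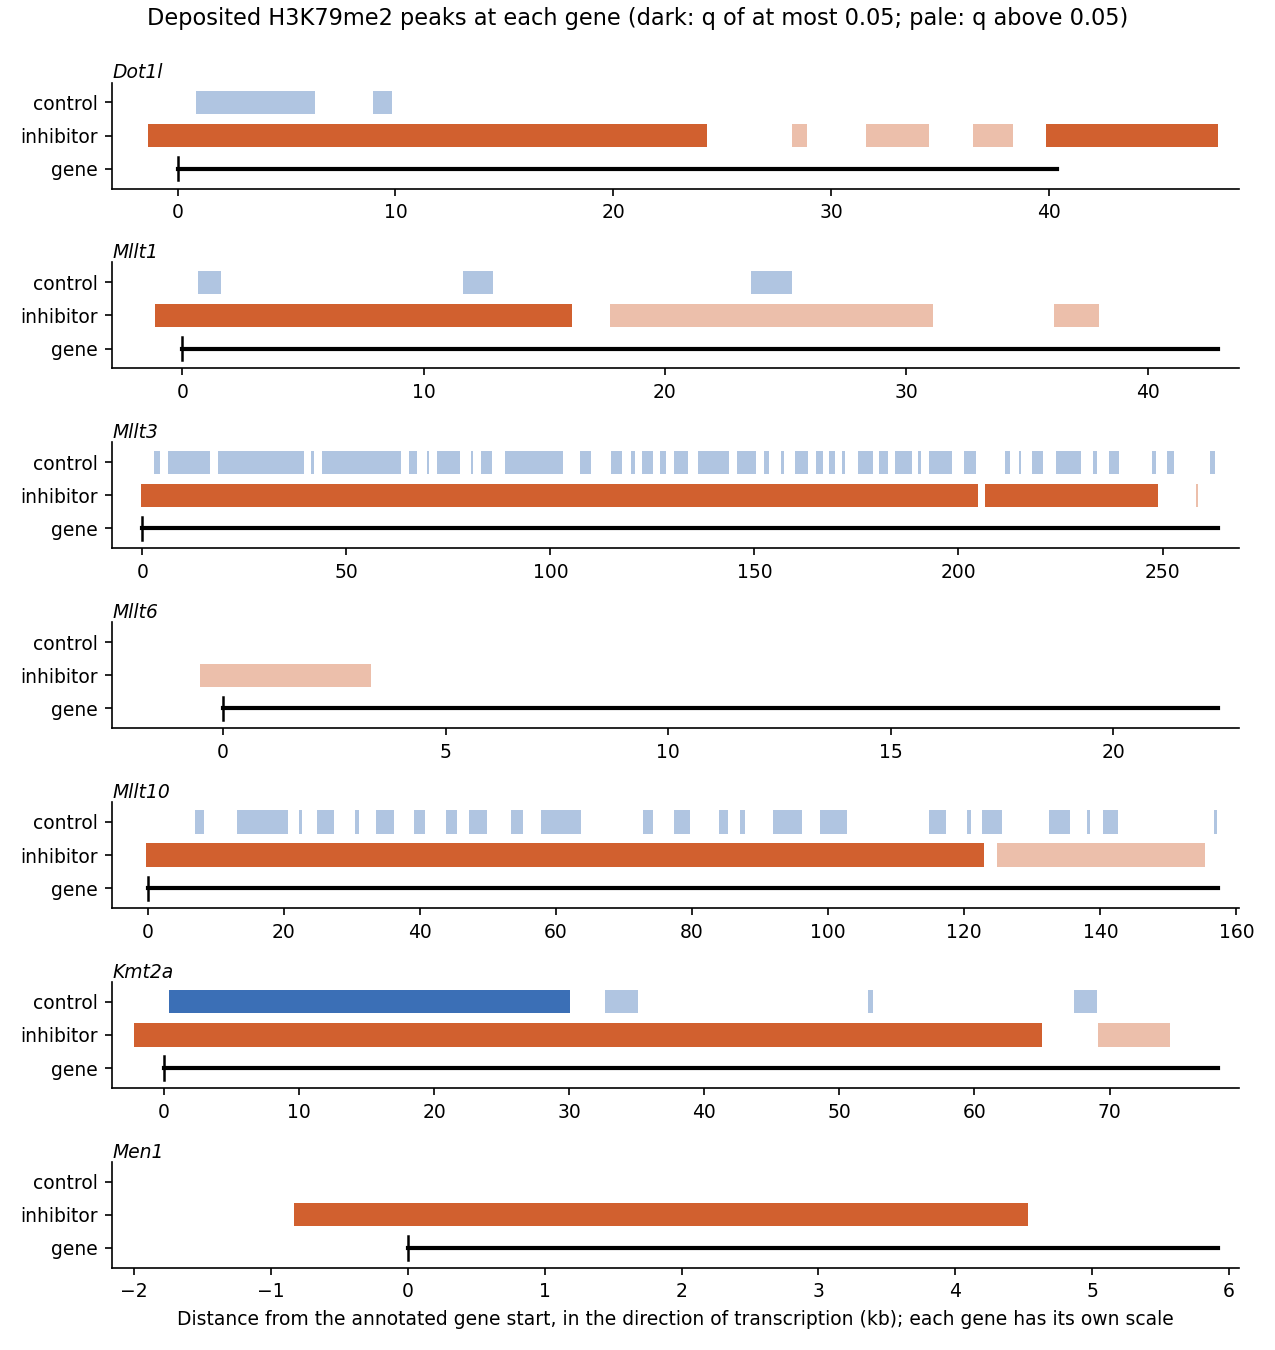
Deposited peaks at each gene by distance from the annotated gene start in kb (x axis, own scale per gene), with control peaks in blue, inhibitor peaks in orange and the gene as a black line; dark boxes passed q of 0.05 and pale boxes did not. Mllt3 and Mllt10 show 40 and 24 pale control peaks above a few inhibitor peaks, Kmt2a has the only dark control peak, and Mllt6 and Men1 have none.

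In total, 73 control peaks and 17 inhibitor peaks touched the 7 genes. Of these, 1 control peak and 8 inhibitor peaks passed q of 0.05. The −log10 q was 0 for 35 of the control peaks and for 1 inhibitor peak. The median width was 1.95 kb in the control and 7.90 kb in the inhibitor list. Most of the control coverage lay inside inhibitor peaks: the share was 100% at Dot1l and Mllt1, 98.1% at Mllt3, 95.8% at Mllt10 and 95.0% at Kmt2a. These shares stand beside an inhibitor coverage of the whole body of 74.9%, 73.2%, 94.0%, 97.6% and 90.2%. At Mllt10 the share was thus below the coverage of the body.

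The position of the peaks relative to the gene start differed between the lists. An inhibitor peak crossed the start of 7 of 7 genes, against 27.3% of the 17492 coding genes whose strand is known, and a control peak crossed 0 of 7, against 7.24%. With strong peaks alone the counts were 6 of 7 (23.6%) and 0 of 7 (1.37%). A count of 0 of 7 stands near a background of that size. Among the 5 genes with a control peak, the first one began 0.333 kb after the start at Kmt2a, 0.659 kb at Mllt1, 0.835 kb at Dot1l, 2.86 kb at Mllt3 and 6.89 kb at Mllt10. Inhibitor peaks began 0.274 kb (Mllt10) to 2.22 kb (Kmt2a) before the start.

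Missing the start was common in the control library. Of 9722 coding genes with a known strand and a control peak, 13.0% had one across the start. Among the 993 that were also marked in the control library, 38.2% did. Over coding genes, control peaks covered 9.44% at 1 kb before the start, 7.24% at the start and 20.4% at 1.5 kb after it. Inhibitor peaks covered 21.2%, 27.3% and 39.6% at the same distances. At 1.5 kb after the start, 3 of the 7 genes were covered in the control and 7 in the inhibitor library.

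**Figure D3:**
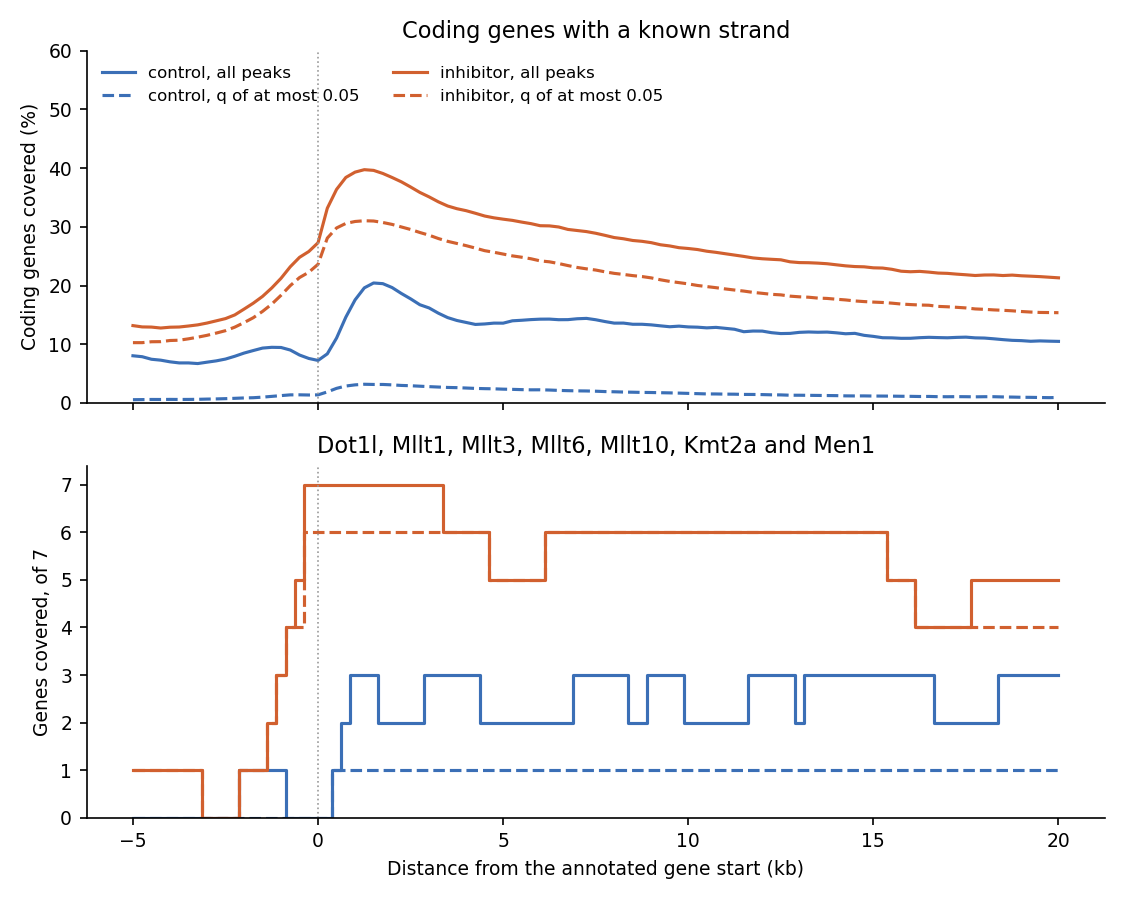
Share of 17492 coding genes (top, in percent) and number of the 7 genes (bottom) covered by peaks at each distance from the annotated gene start in kb (x axis, steps of 250 bp, distances may run past the end of short genes); solid lines are all peaks and dashed lines peaks at q of at most 0.05, with control in blue and inhibitor in orange. At the start the control line for all peaks is at 7.24% above and at 0 genes below, and the inhibitor line is at 27.3% and 7 genes.

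In the first 5 kb of the gene, where H3K79me2 is usually densest, peaks covered at least 50% for 2 of 7 genes in the control library (13.0% of coding genes) and for 7 of 7 in the inhibitor library (36.6%). The 2 genes were Kmt2a, at 93.3%, and Dot1l, at 83.3%. At both, the inhibitor library covered 100%, so the gap there was 6.66 and 16.7 points, against 46.1 and 59.1 over the whole body. At the other genes the order of the measures was the opposite, with a wider gap in the first 5 kb than over the body. The gaps were 66.6 and 14.9 points at Mllt6, 70.7 and 36.8 at Mllt3, and 81.1 and 64.2 at Mllt1. They were 90.6 and 76.6 at Men1, and 100 and 62.8 at Mllt10. The first 5 kb of Mllt1, Mllt3 and Mllt10 were covered over 18.9%, 29.3% and 0% in the control library, and over 100% each in the inhibitor library. Men1 was at 0% and 90.6%.

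Along the gene body, mean coverage of the 7 genes was lower toward the 3′ end in both libraries. Averaged over the 7 genes, control peaks covered 42.4% of the first 10% of the body and 4.61% of the last 10%. Inhibitor peaks covered 100% and 35.4% of the same stretches. Over coding genes of known strand the same means were 15.7% and 7.30% in the control and 36.7% and 16.0% in the inhibitor library. All of the 7 genes but Men1 are longer than 20 kb. Over coding genes of at least 20 kb the means were 21.8% and 7.95% in the control and 43.1% and 14.1% in the inhibitor library. In the inhibitor library Dot1l was covered over 100% of each of the first 6 steps of 10% and over 2.92% of the next. Kmt2a was covered over at least 85.7% of each of the first 4 steps in the control library, and over 100% of each of the first 8 in the inhibitor library.

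**Figure D4:**
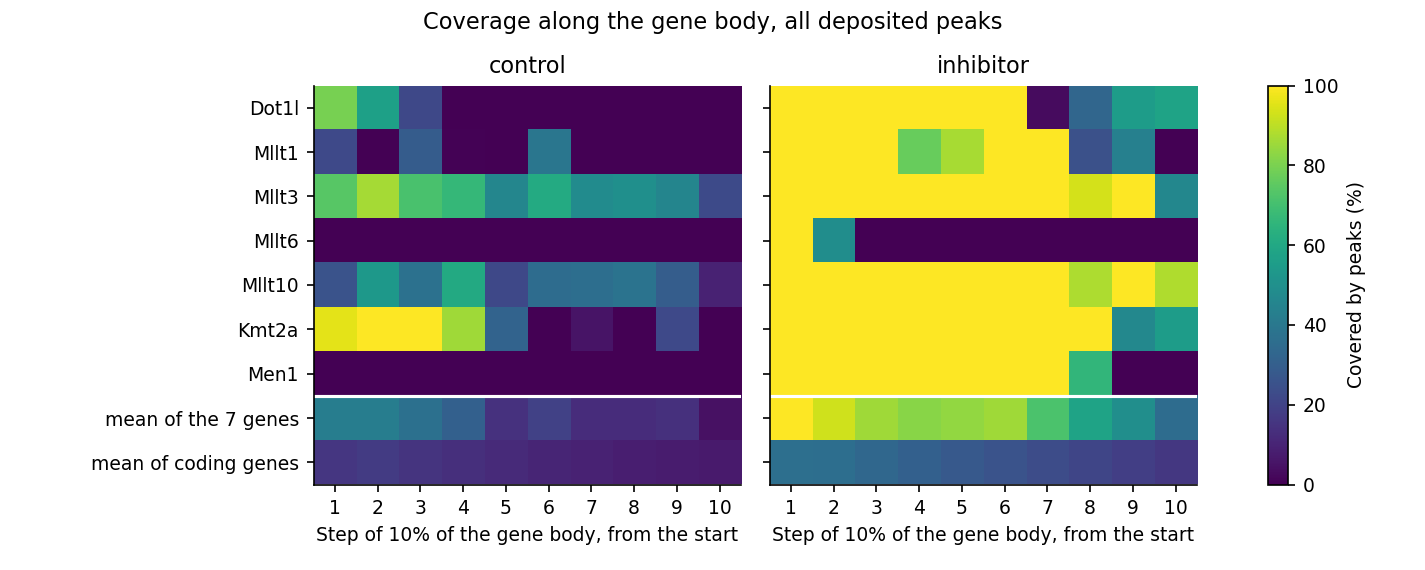
Percent of each step of 10% of the gene body covered by all deposited peaks (colour scale from 0 to 100) for the 7 genes, their mean and the mean of coding genes with a known strand, in the control (left) and inhibitor (right) library; step 1 is at the gene start. The first step is at 100% for all 7 genes on the right, and on the left it ranges from 0% at Mllt6 and Men1 to 95.7% at Kmt2a.

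The partners of these proteins were compared in the same way. Beside the counts stand the shares of all coding genes, 5.47% marked in the control library, 26.1% marked in the inhibitor library and 30.1% at least 25 points higher in the latter. Of 13 genes for partners of MLL1 and menin, 0 were marked in the control and 8 in the inhibitor library, and 10 were at least 25 points higher in the inhibitor library. The median difference was 29.0 points, and 0 were that much higher in the control library. Wdr5, a core subunit of MLL complexes, was covered over 9.12% and 84.1%, and Kmt2d, another H3K4 methyltransferase, over 12.2% and 86.3%. Of 14 genes of the super elongation complex and P-TEFb, which share AF9 and ENL with DOT1L, 2 and 10 were marked. In the inhibitor library 9 were at least 25 points higher and 0 were at least 25 points lower, with a median difference of 53.8 points. Hexim1, the P-TEFb inhibitor, was at 0% and 100%, and Cdk9, its kinase, at 21.6% and 100%, whereas Ell2 was at 21.3% and 18.4%.

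Ubiquitylation of histone H2B stimulates DOT1L, and the PAF1 complex promotes it. Of 11 genes for these steps, 2 were marked in the control and 6 in the inhibitor library. Coverage was higher by 25 points or more in the inhibitor library for 7 and in the control library for 0, and the median difference was 33.1 points. Ube2b, a ubiquitin-conjugating enzyme for H2B that shares bases with a neighbouring coding gene, was at 25.8% and 100%, and Ube2a, its relative, at 35.2% and 100%. Rnf20 and Rnf40, the paired ubiquitin ligases, were covered over 12.5% and 32.1% and over 0% and 32.2%. The other YEATS domain genes, Yeats2 and Yeats4, were covered over 18.0% and 52.7% and over 7.80% and 84.5%.

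**Figure D5:**
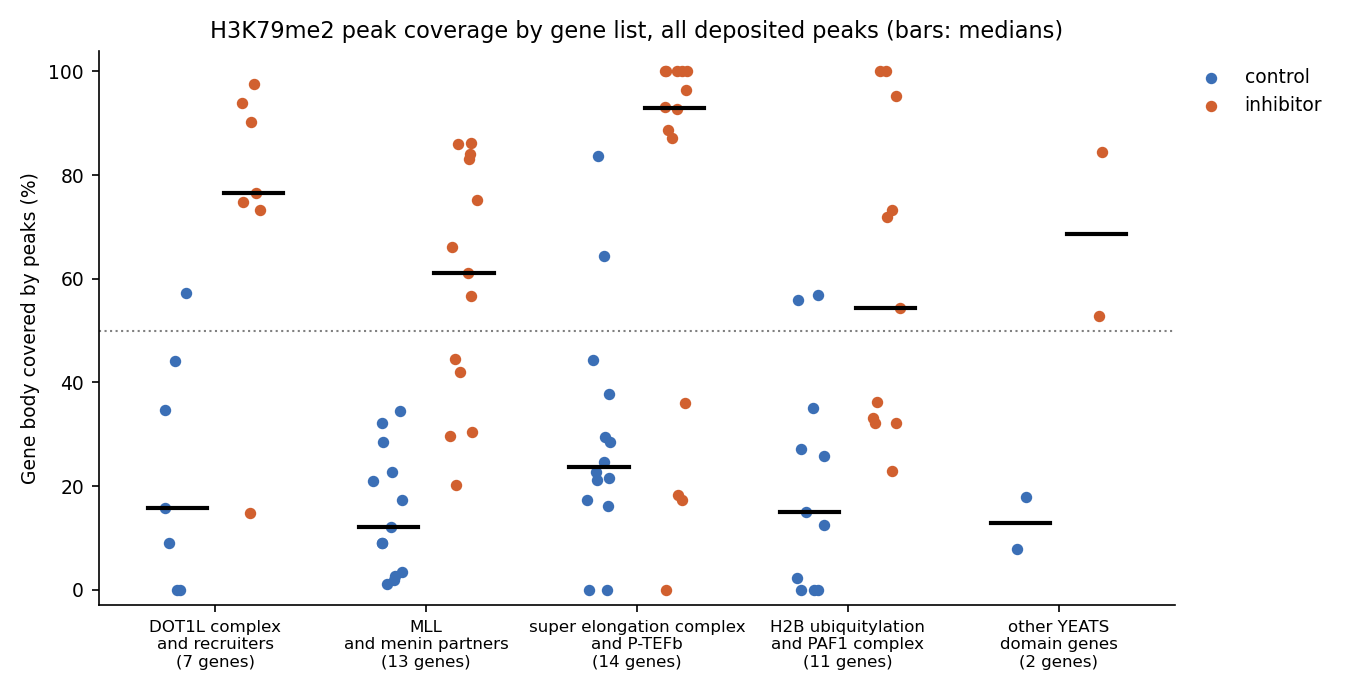
Covered percent of the gene body (y axis, all peaks) for the DOT1L complex and its recruiters and for 4 lists of partner genes, in the control (blue) and inhibitor (orange) library; each point is 1 gene, black bars are medians and the dotted line is the 50% threshold. Among the 7 genes the medians are 15.8% and 76.6%, and the low inhibitor point is Mllt6.

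The coding gene most like each of the 7 was sought by the Euclidean distance over 4 covered percents (each library, with all peaks and with strong peaks), among genes of 0.67 to 1.5 times its length. Dot1l was nearest to Bicd2, a dynein adaptor gene (distance 1.17 percentage points), with 35 genes within 10 points. Mllt1 was nearest to Ubtd1 (3.26, with 16 genes within 10), and Mllt10 to Dnajc6 (8.18, with 3). Men1 was nearest to Iscu, an iron-sulphur cluster scaffold gene (0.423, with 44), and Mllt6 to Zfp94 (0.0635, with 268). For Mllt3 only Prkch, a protein kinase C gene, lay within 10 points (8.11), and for Kmt2a only Cltc, the clathrin heavy chain gene (9.45).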

How the data were processed

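H3K79me2 ChIP-seq peaks of 1 control and 1 inhibitor library were analysed; the 2 inputs were not used here. Per the submitters' processing notes, BWA, MACS2 2.1.0 and mm10 were used, with no roles given; neither source used here gives the caller options or says whether the inputs served as background. The deposited values, with the column order of MACS2 broad peaks, are a fold enrichment (a ratio to local background), −log10 p and −log10 q, and a score. The deposited score is the whole part of 10 times −log10 q and was not used further. No peak in either list has a −log10 p under 1.00.

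Touching peaks of a list were joined and laid over RefSeq gene bodies of GRCm38.p6, the assembly of mm10, in Python 3.11.15 (numpy 2.4.6, pandas 2.3.3, matplotlib 3.10.9). Strand came from the RefSeq start windows, which cover 17492 of the 21887 coding genes. A peak that runs past a gene can belong in part to its neighbour. Depth is unknown, so no interval was computed. The coverage code was tested on simulated data. The members, lists and named genes (all 7 members, up to 2 genes per direction and partner list with at least 25 points difference, 1 nearest gene each) were chosen with earlier results of these data known. Ell2, Rnf20, Rnf40 and the stromal and myeloid markers fall outside that rule and were named after their values were seen. No protein sequence was used here.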

Additional observations from a re-analysis of the deposited data

How the results depend on the processing

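With 1 library per condition there is no replicate to leave out, and no paired analysis was possible because each condition has 1 library and the result comes from no test. Depth is unknown and limits what weak control peaks can show. The number of genes marked in the control library, 1, became 0 for peaks at q of at most 0.05, at −log10 q of at least 5, at fold of at least 3 and at 80% of the body. It became 2 in the better covered or the first 5 kb, and 5 with any covered base. The number marked in the inhibitor library, 6, became 5 for peaks at q of at most 0.05 and at fold of at least 3. It became 4 at −log10 q of at least 5, 3 at 80% of the body and 5 without genes that overlap another coding gene. In the better covered or the first 5 kb, and with any covered base, it became 7. The number at least 25 points higher in the inhibitor library, 6, became 4 at −log10 q of at least 5. That number became 5 in either 5 kb stretch and without overlapping genes. Across 9 alternatives that give a difference per gene, 62 values were computed, of which 50 were higher in the inhibitor library, 11 were 0 and 1 was negative. These values are not separate checks. Merging peaks within 1 kb left the difference of each gene unchanged. No control peak at the 7 genes had a −log10 q above 1.33 or a fold above 2.22. Limits of 5 on −log10 q or 3 on fold could therefore give no negative difference. With q of at most 0.05 the same held for all but Kmt2a. The alternative behind the negative value, and behind most of the values at 0, was chosen after seeing the data. It keeps the strongest peaks of each list up to the length of the control peaks at q of at most 0.05, which leaves 804 control peaks and 244 inhibitor peaks, the latter with −log10 q of at least 14.7. No inhibitor peak at the 7 genes was strong enough to stay, the highest −log10 q among them being 12.95. In this setting 0 genes were marked in either library. Then 0 genes were at least 25 points higher in the inhibitor library, 1 gene was higher in the control library, the median difference was 0 points and the difference at Kmt2a turned to −38.1 points. At −log10 q of at least 5, the differences at Mllt1 and Mllt10 were 0 points.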

Other observations

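Start windows of coding genes were grouped by their number of CG dinucleotides, and 6 of the 12 windows of the DOT1L complex genes fell in the group with most of them. That group held 5263 of all 21263 windows. Inhibitor peaks touched 9.63% of 6035 windows with 0 to 4 CG dinucleotides and 55.0% of 5263 windows with 25 to 67. Control peaks touched 11.1% and 9.16% of the same windows. In the groups between, with 5 to 13 and with 14 to 24, inhibitor peaks touched 24.5% and 46.1%, and control peaks 7.89% and 7.52%. This grouping was chosen after the values at the 7 genes had been seen, and windows of 1 gene can overlap.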
